A study of Caenorhabditis elegans with 2 samples.

Results

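FKH-8 is a forkhead transcription factor of the nematode Caenorhabditis elegans known for its role in ciliated sensory neurons, where it helps to switch on genes of the cilium. The regions described here are its distal intergenic binding peaks on the autosomes. They are the reproducible peaks whose summit lay on chromosomes I to V, outside every protein-coding gene and outside every promoter window. A promoter window ran from 1000 bp upstream to 200 bp downstream of a coding 5′ end. Summits within 100 bp of a tRNA, snoRNA or snRNA gene were left out as well. By this rule 1048 of 4963 reproducible peaks were members (21.1%, exact Clopper-Pearson 95% interval 19.99 to 22.3%), or 26.5% of the 3955 autosomal ones. The interval covers counting error only and treats peaks as independent, although some overlap one another.

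Peaks came from chromatin immunoprecipitation with sequencing (ChIP-seq) of whole, mixed-sex L1 larvae, the youngest larval stage, taken 6 hours after synchronization, for which bleached cultures were starved as L1. The strain, OP652, has the genotype unc-119(tm4063) III; wgIs652, and it stably expresses FKH-8 with a C-terminal GFP-FLAG tag. The description names an anti-GFP antibody, whereas the antibody field names fkh-8. There was 1 group of 2 biological replicates, with no untagged strain or second condition among the samples used here. All animals carried the same transgene, so nothing below separates the tag or the transgene from the native protein. Whole larvae were used, so a peak does not tell which cells it came from. With 1 group and regions that are not independent replicates, no test between peak classes was made, and differences are set beside the spread of the 2 replicates. The replicate lists held 19354 and 21452 peaks, the pooled list 17956, and the read depth behind them is unknown.

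In C. elegans most regulatory sequence lies close to genes, since the genome is compact. Peaks far from any coding 5′ end are of interest because enhancers can act on a promoter from a distance. An annotated 5′ end in this species is often a trans-splice site, where a short leader is joined to the transcript, so transcription can begin further upstream than the annotation shows. Forkhead factors typically recognise a TAAACA core, while the X-box is the site of the RFX factor DAF-19, the known activator of ciliary genes.

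The sequences at the highest peaks show what these regions look like. Each window below reaches 100 bases to either side of the summit on the plus strand of the RefSeq genome (WBcel235, ce11 coordinates). The first 4 are the highest distal peaks by signal, and the next 4 are the highest with an X-box on chromosomes II to V. Capitals mark matches on either strand to the motifs searched. These are GAGAGA, which is a short repeat, the motif GACGC, the forkhead core TAAACA, and the X-box, a consensus of 14 letters given by name. Matches can overlap one another.
cmd-1, chrV:1151391-1151591: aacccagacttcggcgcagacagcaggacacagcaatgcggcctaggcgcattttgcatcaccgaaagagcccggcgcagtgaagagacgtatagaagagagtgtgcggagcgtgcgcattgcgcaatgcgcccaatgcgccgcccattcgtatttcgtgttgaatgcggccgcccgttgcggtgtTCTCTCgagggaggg
hif-1, chrV:20778326-20778526: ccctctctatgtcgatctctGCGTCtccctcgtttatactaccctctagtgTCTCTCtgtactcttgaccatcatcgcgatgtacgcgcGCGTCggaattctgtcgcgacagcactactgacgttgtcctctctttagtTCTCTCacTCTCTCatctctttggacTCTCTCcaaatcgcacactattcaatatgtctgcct
sup-26, chrIII:4282101-4282301: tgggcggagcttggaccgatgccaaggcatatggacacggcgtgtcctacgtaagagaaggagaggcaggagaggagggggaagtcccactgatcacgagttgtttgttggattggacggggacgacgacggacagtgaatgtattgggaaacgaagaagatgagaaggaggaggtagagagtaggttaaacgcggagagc
T04C4.3, chrIV:2219543-2219743: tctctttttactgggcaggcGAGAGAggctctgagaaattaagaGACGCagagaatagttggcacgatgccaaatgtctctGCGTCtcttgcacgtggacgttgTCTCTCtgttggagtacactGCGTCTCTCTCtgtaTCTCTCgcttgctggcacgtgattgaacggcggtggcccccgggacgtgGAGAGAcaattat
txt-18, chrII:6342554-6342754: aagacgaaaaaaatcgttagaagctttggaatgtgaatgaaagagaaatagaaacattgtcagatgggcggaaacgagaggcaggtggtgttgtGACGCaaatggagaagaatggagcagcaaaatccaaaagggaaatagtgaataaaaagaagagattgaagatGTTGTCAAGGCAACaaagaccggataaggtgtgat
clp-10, chrIII:31716-31916: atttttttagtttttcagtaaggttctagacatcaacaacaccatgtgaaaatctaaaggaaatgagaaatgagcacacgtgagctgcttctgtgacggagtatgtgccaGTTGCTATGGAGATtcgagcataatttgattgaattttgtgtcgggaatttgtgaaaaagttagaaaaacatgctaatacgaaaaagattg
ldh-1, chrII:11722257-11722457: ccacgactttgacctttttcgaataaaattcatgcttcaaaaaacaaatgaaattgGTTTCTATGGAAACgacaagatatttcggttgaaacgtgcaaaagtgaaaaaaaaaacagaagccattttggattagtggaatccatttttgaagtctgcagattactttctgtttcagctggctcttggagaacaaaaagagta
W07G1.7, chrII:13964440-13964640: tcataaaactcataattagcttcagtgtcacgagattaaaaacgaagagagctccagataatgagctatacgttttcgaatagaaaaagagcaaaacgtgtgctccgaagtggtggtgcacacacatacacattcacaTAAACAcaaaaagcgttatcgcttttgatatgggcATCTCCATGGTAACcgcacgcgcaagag
Names are those of the coding gene with the nearest 5′ end, which need not be a target. The hif-1 window held 4 GAGAGA and 2 GACGC matches and the T04C4.3 window 6 and 3, whereas the sup-26 window held none of the motifs searched. The ldh-1 match read as an X-box on both strands.

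The distal peaks had deposited signal values, on the authors' own scale, from 94.96 to 1763, with quartiles of 118, 152 and 232. Autosomal promoter peaks had a median of 182 and autosomal intron peaks 158, while distal intergenic peaks of the X chromosome had 156. The ratio of the distal median to that of all other autosomal peaks was 0.893, and in the replicates it was 0.893 ± 0.00166 (SD, n = 2). A replicate's best peaks are the 4963 peaks of highest signal in its own list. Members made up 15.9% of the highest of 5 equal parts of the reproducible list by signal and 24.5% of the lowest. In the whole pooled list, which holds background regions, 3535 peaks were autosomal and distal by the same rule, and 29.6% of them were in the reproducible list. The share was 27.6% for all pooled peaks, 38.8% for autosomal promoter peaks and 23.1% for autosomal intron peaks. The values on the 2 sides of the cutoff were close. The 5 lowest members had signals of 94.96 to 95.2, and the 5 highest distal peaks below the cutoff had 94.3 to 94.8.

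The reproducible list was itself chosen for agreement between the replicates, so the overlaps that follow describe the members and test nothing. All 1048 overlapped a peak in both whole replicate lists, as did 358 of 358 X distal and 1805 of 1806 promoter peaks, and 859 (82.0%) overlapped a best peak of both, against 85.2% of promoter peaks and 82.0% of intron peaks. Best peaks of replicate 1 alone covered 91.0% and those of replicate 2 alone 89.7%, and 13 members overlapped none. Across the members, signal in the 2 lists had a Spearman coefficient of 0.811 and, for log10 values, a Pearson coefficient of 0.882. These coefficients are over 1048 peaks of 2 libraries, describe the lists only, and carry no p. Some peaks share values, because 79 members overlapped another reproducible peak and then took the same replicate peak.

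**Figure D1:**
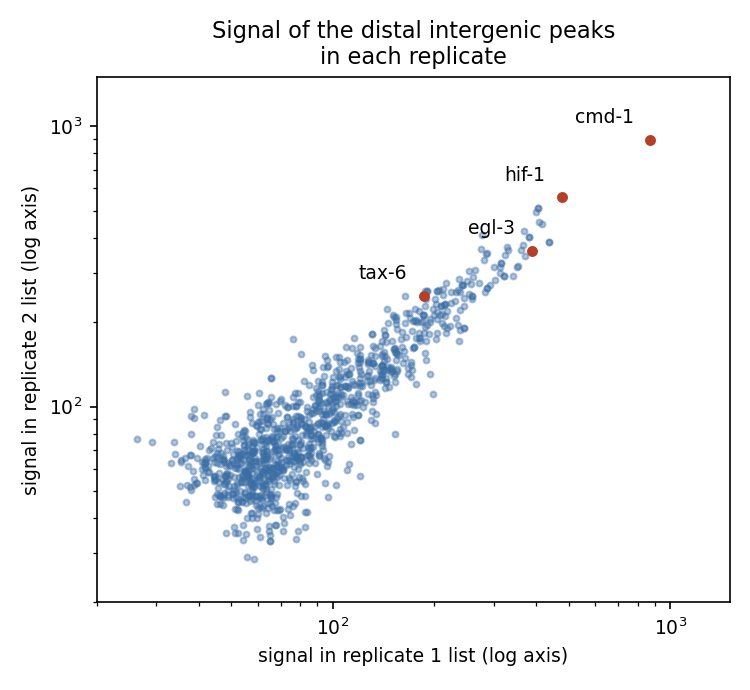
Signal of each of the 1048 distal intergenic peaks in the list of replicate 1 (x axis) and replicate 2 (y axis), both on log axes and in the authors' signal units. Red points mark the highest peaks nearest to cmd-1, hif-1, egl-3 and tax-6, and the cloud widens toward low signal.

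The highest distal peak had rank 3 among all reproducible peaks. It lay at V:1151295-1151720 inside the lincRNA gene linc-128, 4780 bp upstream of cmd-1 (WBGene00000552), which encodes calmodulin. Its signal was 872 in replicate 1, 892 in replicate 2 and 1763 in the pooled data. It had ranks 4 and 3 in the replicate lists, so both replicates placed it near the top. The next peak, at V:20778265-20778578 and 1981 bp upstream of hif-1, had 478, 557 and 1041 in the same 3 lists. hif-1 encodes the hypoxia-inducible transcription factor. A peak 1781 bp upstream of egl-9, which encodes the prolyl hydroxylase that marks HIF-1 for degradation, had 437, 385 and 816. It lay within 2 annotated ncRNA genes and its replicate ranks were 52 and 94.

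Other peaks among the 10 highest stood near genes of varied function. The peak 1977 bp upstream of sup-26, an RNA-binding protein gene, had 406 in replicate 1, 510 in replicate 2 and 918 in the pooled data. The peak nearest to nhr-157, a nuclear hormone receptor gene, had 418, 446 and 874. A peak 5787 bp upstream of ptc-1, the Patched homologue gene, had 382, 404 and 784. A peak 1070 bp upstream of egl-3, which encodes a proprotein convertase for neuropeptides, had 389, 359 and 755. T04C4.3, F40E3.3 and F07H5.13 were the remaining nearest genes, with pooled signals of 887, 861 and 792. Of the 10 peaks, 2 had a nearest gene that also carried a reproducible summit in its promoter window, hif-1 and nhr-157. In all, 12 members were among the 100 highest reproducible peaks and 158 among the 1000 highest.

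Most distal peaks were a few kilobases from a gene. The median distance to the nearest coding 5′ end was 2362 bp, with quartiles of 1534 and 3758 bp, and the replicates gave 2347 ± 14.1 bp (SD, n = 2). The autosomal sequence that meets the same rule, 19.3 Mb or 23.4% of the autosomes, had a median distance of 2714 bp, so the peaks lay somewhat nearer to genes than the available sequence. Within 2000 bp lay 410 peaks (39.1%), against 33.8% of that sequence. Between 5000 and 10000 bp lay 144 peaks (13.7%, against 17.2%), and beyond 10000 bp lay 10 (0.954%, against 4.14%). The rule itself sets the lower end. The 5 upstream members nearest the window edge stood at 1002 to 1011 bp with signals of 97.3 to 435, and the 5 intergenic peaks just inside it stood at 987 to 994 bp with 107.5 to 291. Only 11 members were within 1000 bp of a 5′ end, all beyond the far end of a short gene.

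Median signal was somewhat lower beyond 2500 bp than nearer, and no replicate spread was computed for these bins. The median was 160 for the 251 peaks at 1500 bp or less, 161 for the 306 peaks between 1500 and 2500 bp, 140 for the 337 peaks up to 5000 bp and 143 for the 154 peaks beyond. The Spearman coefficient of signal with distance was -0.090 over the 1048 peaks, given as a description. Peaks overlapping best peaks of both replicates made up 85.7% of the nearest of these 4 bins and 77.9% of the farthest. The farthest peak lay on chromosome IV, 19749 bp from the 5′ end of Y105C5B.1418 in an interval of 40322 bp, with signals of 54.95 and 49.1 in the replicates and 105 in the pooled data. It ranked 4229 and 4962 in the replicate lists, just within the best peaks of both. The next farthest were nearest to tpra-1 (10951 bp, pooled signal 107.6), egl-27 (10874 bp, 95.8), Y46E12A.3 (10770 bp, 114) and srab-24 (10674 bp, 247). The last of these stood apart in signal, with 129 in replicate 1 and 124 in replicate 2.

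Distal peaks were sparse between genes that end toward each other. Intervals between neighbouring coding genes are divergent where both 5′ ends face the interval, tandem where 1 does and convergent where neither does. Divergent intervals held 385 peaks (36.7%) and 28.8% of the sequence meeting the rule, or 69.1 peaks per Mb. Tandem intervals held 606 peaks (57.8%) and 53.6% of the sequence, or 58.5 per Mb. Convergent intervals held 57 peaks (5.44%) and 17.6% of the sequence, or 16.7 per Mb. The replicates gave a convergent share of 5.72% ± 0.651 (SD, n = 2), so the gap to 17.6% exceeded the spread between them. The median signal was 157, 150 and 139.2 in divergent, tandem and convergent intervals. The nearest edge of a coding gene was a 5′ end for 628 peaks (59.9%) and a 3′ end for 420, against 48.3% of the sequence with a 5′ end nearest. Of the peaks, 117 (11.2%) were within 500 bp of a coding 3′ end.

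**Figure D2:**
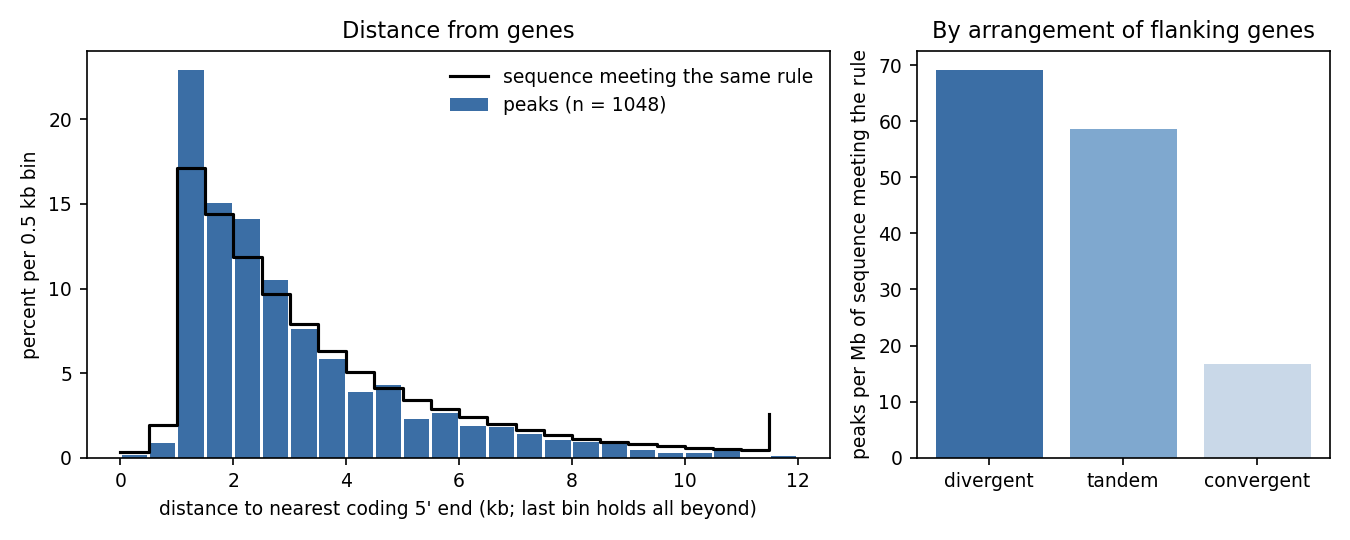
Left, percent of the 1048 distal peaks (bars) and of all autosomal sequence meeting the rule (line) in bins of 500 bp by distance to the nearest coding 5′ end. Right, distal peaks per Mb of that sequence by arrangement of the flanking genes: 69.1 divergent, 58.5 tandem and 16.7 convergent.

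Per length of sequence, distal intergenic regions held fewer peaks than promoter windows and more than introns. The density was 54.2 peaks per Mb in sequence meeting the rule, 98.5 in promoter windows, 32.4 in introns and 6.66 in exons, with 47.9 over the autosomes as a whole. By chromosome the density was 66.9 per Mb on I, 56.5 on II, 65.6 on III, 44.4 on IV and 49.1 on V, and 63.05 on X by the same rule. Counts were 188, 202, 183, 222 and 253 on chromosomes I to V. The central part of each autosome, from 25 to 75% of its length, held 63.1% of the peaks, against 46.4% of the sequence meeting the rule, and the replicates gave 63.8% ± 0.314 (SD, n = 2). Promoter and intron peaks had similar central shares, 61.1% and 61.3%, while X distal peaks had 48.0%.

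Genes nearest to a distal peak were bound at their promoters more often than the background, although most were not bound there. The nearest gene had a reproducible summit in its own promoter window for 239 distal peaks (22.8%). The nearest gene did so for 9.09% of the sequence meeting the rule, and 13.8% of autosomal coding genes (2379 of 17242) were bound in this way. In all, 807 genes were nearest to 1 or more distal peaks, 4.68% of autosomal coding genes, and 636 of them had no promoter peak. Of these 807 genes, 177 were nearest to 2 or more peaks and 45 to 3 or more.

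Some distal peaks had close neighbours and others stood alone. Another reproducible summit lay within 2000 bp of 468 members (44.7%), and the replicates gave 44.6% ± 0.649 (SD, n = 2). The share was 23.6% for promoter peaks, 51.95% for intron peaks and 45.3% for X distal peaks. For 357 of the 468 the nearest summit was another distal intergenic one, and for 96 it was a promoter summit. Overlapping peaks are counted in this share, and 75 members had a summit under 300 bp away. With overlapping peaks merged the share was 40.7%, within 1000 bp it was 20.7%, and at a stricter signal cutoff, which leaves fewer summits, it was 26.1%. Members with a neighbour had a median signal of 160, and those without one had 147. The 1048 peaks lay in 719 of the 7285 autosomal intervals that hold sequence meeting the rule (9.87%). Of these intervals, 506 held 1 member, 140 held 2, 41 held 3, 25 held 4 and 7 held 5 or more. Intervals with members had a median length of 6883 bp when counted per peak, against 7307 bp per base of the sequence meeting the rule.

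The intervals described next held 8, 6 and 5 members. The last is 1 of 5 intervals with 5 members, taken for its summed signal. On chromosome III, the 11491 bp between H10E21.5 and clp-10, a calpain-family gene, held 8 members with signals of 111 to 552, of which 2 pairs were overlapping peaks. Its highest peak, at III:31665-31927, had 271 in replicate 1, 275 in replicate 2 and 552 in the pooled data and is the one shown above with an X-box. The 15313 bp between F54F12.1 and Y39E4B.6, also on chromosome III, held 6 members with signals of 112.1 to 690. Of these, 2 overlapped each other, with signals of 432 and 175. A promoter peak of Y39E4B.6 in the same interval had 654, 774 and 1428 and had rank 10 of all. The 5781 bp between egl-3 and cul-5, a cullin gene, on chromosome V held 5 members at roughly even spacing, with pooled signals of 755, 153, 139.4, 121 and 349 from left to right. The last of these 5 lay in the lincRNA gene linc-146.

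**Figure D3:**
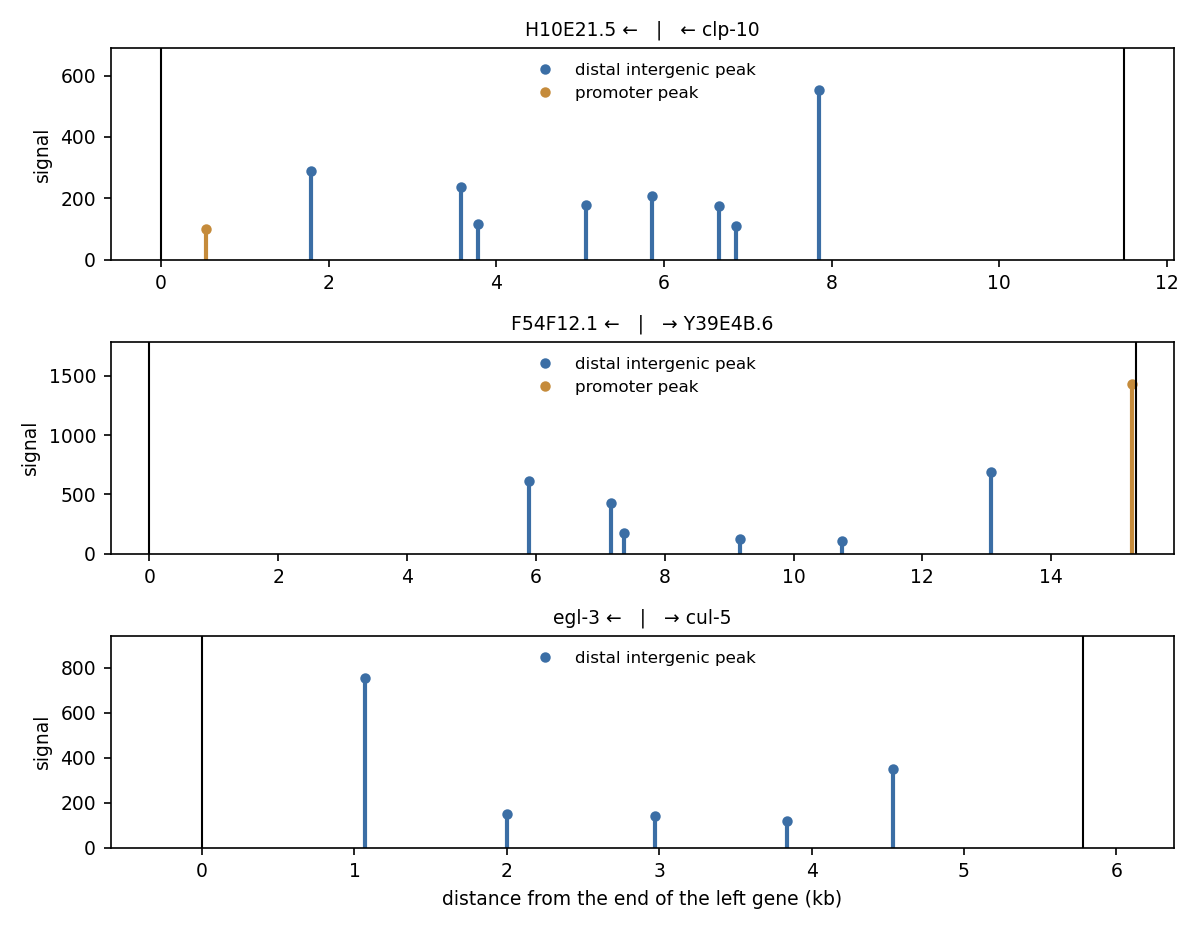
Signal (y axis, authors' units) of each reproducible peak against its distance in kb from the end of the left gene in the intervals with 8 and 6 distal peaks and in the one of highest summed signal among the 5 intervals with 5. Vertical black lines mark the flanking genes, arrows their direction, blue the distal peaks and orange the promoter peaks.

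By gene, the largest number of distal peaks was nearest to H10E21.5, with 7, followed by K08F11.1, tax-6 and F58H10.1, with 5 each. tax-6 encodes the catalytic subunit of calcineurin, a calcium-dependent phosphatase that acts in sensory neurons. Its 5 peaks stood 2372 to 6185 bp upstream with signals of 150 to 439. Another 9 genes had 4 each. Taken in order of highest signal, they were ptc-1 (784), F21D12.3 (455), daf-38 (408), dpsm-1 (370), Y37A1B.7 (320), mvk-1 (227), egl-27 (182), slc-17.7 (173) and aat-5 (140.3). daf-38 encodes a G protein-coupled receptor for ascaroside pheromones, and its 4 peaks stood 3701 to 10300 bp away.

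The gene lists differed in how often their genes were nearest to a distal peak, and lists of neuronal genes lay both above and below the background share. Of 29 autosomal genes on a list of pan-neuronal genes, 13 (44.8%) were nearest to 1 or more distal peaks, against 4.68% of all autosomal coding genes. The best peaks of the replicates gave 13 and 15, so the count differed little between them. The highest peaks were at egl-3 (755) and at unc-64 (615, 1273 bp upstream), which encodes syntaxin. Next were unc-31 (464, 2220 bp upstream), the CAPS gene of dense-core vesicle release, and unc-104 (346, 1871 bp upstream), the kinesin gene of synaptic vesicle transport. The other 9, named after their values were seen, were snb-1, unc-51, maco-1, unc-44, jnk-1, unc-13, unc-33, rgef-1 and ida-1, with highest signals from 102.6 to 308. Promoter peaks were found at 11 of the 29 genes (37.9%), including 4 of the 13. The count depends on the rule, since 5 of the 29 remained with promoter windows from 2000 bp upstream to 500 bp downstream.

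Sensory signalling genes numbered 39, of which 9 (23.1%) were nearest to a distal peak, with 9 in each replicate, and 10 (25.6%) had a promoter peak. At tax-6 the highest peak had 186 in replicate 1, 248 in replicate 2 and 439 in the pooled data. At odr-3, a G protein alpha subunit gene of olfactory neurons, the values were 192, 181 and 375, at 3518 bp upstream. gpa-15 (268) and gpa-3 (256), genes of the same protein family, came next. The remaining 5, named after their values were seen, were gpa-2, gpa-10, gcy-28, osm-9 and gpa-11, with 99.1 to 157. All 37 peaks nearest to a gene of these 2 lists lay upstream of it, as did 854 (81.5%) of all members. Of the 37, 33 overlapped best peaks of both replicates, against 82.0% of all members. An X-box lay near the summit of 0 of the 37 and of 3.34% of all members. At that share, a count of 0 among 37 does not set these peaks apart.

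Genes of the cilium and of the ribosome had more promoter peaks than distal ones. Of 51 autosomal cilium genes, 2 (3.92%) were nearest to a distal peak and 26 (50.98%) had a promoter peak. They were klp-11 (signal 135), a kinesin-II motor gene, and che-10 (125), which encodes rootletin of the ciliary base. Of 79 ribosomal protein genes, 3 (3.797%) were nearest to a distal peak and 67 (84.8%) had a promoter peak, the 3 being rps-25 (178), rps-28 (120) and rpl-35 (96.0). Genes differ in how much sequence meeting the rule lies nearest to them. The median per gene was 0 bp for cilium and ribosomal protein genes, 93 bp for sensory signalling, 1553 bp for pan-neuronal genes and 123 bp for all autosomal coding genes. Per Mb of such sequence, peaks numbered 255 for pan-neuronal genes, 279 for sensory signalling, 78.4 for cilium genes, 63.4 for ribosomal protein genes and 54.2 for all. The cilium and ribosomal protein densities rest on 2 and 3 peaks, and overlapping peaks were counted apart in all of them.

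Peptide genes were nearest to a distal peak more often than they had a promoter peak. Of all autosomal coding genes, 4.68% were nearest to a distal peak and 13.8% had a promoter peak. Insulin-like peptide genes were nearest to a distal peak at 9 of 37 (24.3%, 8 in each replicate), with 4 of 37 bound at the promoter. ins-24 (184), ins-3 (179), ins-30 (177) and ins-21 (137) had the highest signals. All 4 of these peaks lay downstream of the 5′ end, beyond the gene. Neuropeptide genes were nearest to a distal peak at 10 of 70 (14.3%, 12 and 8 in the replicates), with 2 of 70 bound at the promoter. Their highest were nlp-40 (664), nlp-47 (265), flp-16 (178) and nlp-13 (157), and nlp-47 and flp-16 each had 3 peaks. The nlp-40 peak lay 5528 bp downstream of the 5′ end, in a convergent interval of 646 bp. The highest peaks of nlp-47, flp-16 and nlp-13 lay upstream. Potassium and calcium channel genes had 7 of 52 (13.5%) nearest to a distal peak and 0 of 52 with a promoter peak, a count of 0 that allows up to 5.77%. They included shl-1 (220) and slo-1 (209), genes of a voltage-gated and a calcium-activated potassium channel.

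Transcription factor lists lay above the background share of 4.68%, some of them on few genes. Nuclear receptors were nearest to a distal peak at 20 of 246 genes (8.13%), led by nhr-157 (874), nhr-20 (642), nhr-88 (636) and nhr-186 (614). Homeobox genes of the ceh class stood at 5 of 45 (11.1%), led by ceh-48 (248), ceh-62 (161), ceh-43 (149) and ceh-58 (143). Neuronal transcription factors stood at 4 of 42 (9.52%), which were egl-43 (170), ceh-43, cog-1 (106.998) and unc-39 (100.8). The bHLH genes stood at 2 of 19 (10.5%), hlh-30 (163) and hlh-10 (100.1). Forkhead genes stood at 2 of 11 (18.2%), fkh-7 (352) and fkh-10 (215). With 28.5 and 29.0 peaks per Mb of nearby sequence, neuronal transcription factors and bHLH genes were below the 54.2 of all genes. Nuclear receptors (70.2), ceh genes (88.4) and forkhead genes (99.3) were above it. The bHLH and forkhead densities rest on 2 and 3 peaks. 

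The remaining lists had shares near or below the background of 4.68%, or rested on 1 gene. Among tissue markers, muscle genes stood at 1 of 21 (4.76%; unc-60, 312) and germline genes at 1 of 35 (2.86%; cpg-1, 149). Argonaute and microRNA processing genes stood at 1 of 14 (7.14%; alg-4, 143). Acetylcholine and GABA receptor genes, which act in neurons and muscle, stood at 1 of 63 (1.59%; unc-63, 171), with 7.60 peaks per Mb of nearby sequence. Intestine (24 genes), epidermis (23), glia (12), histone (46) and collagen (129) genes were each nearest to 0 distal peaks. Counts of 0 allow shares of up to 12.5%, 13.0%, 25%, 6.52% and 2.33%, for counting error only. The best peaks of the replicates added 2 and 1 glial genes and 0 and 1 collagen gene, so not every count of 0 held in both lists. Chemoreceptor genes, which act mainly in sensory neurons, were below the background share at 29 of 1260 (2.30%), with 25.6 peaks per Mb. Their highest were srr-4 (273) and srab-24 (247).

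**Figure D4:**
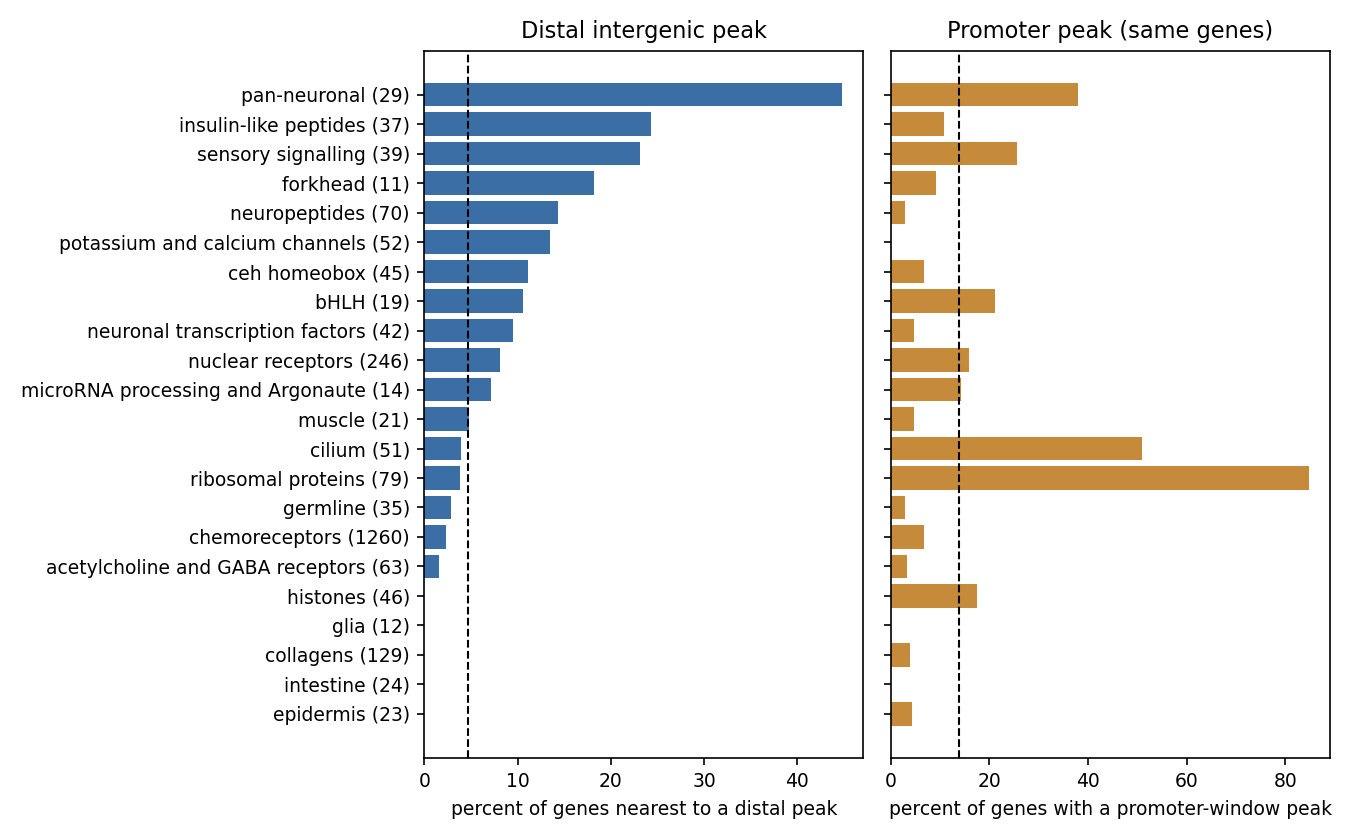
Percent of the autosomal genes of each list (number in brackets) that were nearest to a distal intergenic peak (left, blue) and that had a reproducible summit in the promoter window (right, orange). Dashed lines mark all autosomal coding genes, 4.68% and 13.8%. Pan-neuronal genes reach 44.8% on the left, while ribosomal protein genes reach 84.8% on the right.

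Some distal peaks lay in genes that do not encode protein. Summits of 65 members (6.202%) fell in such a gene, against 15.01% of the sequence meeting the rule, and the replicates gave 6.49% ± 0.656 (SD, n = 2). Of these, 48 lay in ncRNA genes, 12 in lincRNA genes, 5 in pseudogenes, 1 in the miRNA gene cel-mir-8209, 1 in an antisense RNA gene and 0 in piRNA genes, where a summit can lie in more than 1 gene. Members in lincRNA genes had a median signal of 255, and those in ncRNA genes 178. After linc-128, the highest lincRNA peak was at linc-91 (554), with a second peak in that gene at 303. The other 983 members lay in no annotated gene.

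Summit sequence was richer in GAGAGA than its surroundings. The motif lay within 100 bp of 432 summits (41.2%), in 9.73% of windows of the same width 500 bp to either side, and in 10.5% of all 92629 windows of that width that meet the rule. The replicates gave 41.1% ± 1.03 (SD, n = 2). It was found at 31.8% of autosomal promoter peaks, 39.5% of intron peaks and 23.5% of X distal peaks. The replicates gave 31.6% ± 0.246 for promoter peaks, 39.5% ± 1.17 for intron peaks and 22.5% ± 3.40 for X distal peaks. Distal peaks thus differed from promoter and X distal peaks by more than these spreads, and from intron peaks by an amount close to them. Members with GAGAGA had a median signal of 174, and those without it 140. The share ranged from 30.4% on chromosome V to 52.7% on chromosome I.

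GACGC was found at 29.6% of distal summits, at 9.45% of flanks and in 10.1% of all windows. Promoter peaks had 34.1%. TAAACA was found at 11.6% of distal summits, below the 17.3% of flanks and the 15.7% of all windows, and at 14.3% of promoter peaks. Intron peaks (11.3%, against 14.3% of their flanks) and X distal peaks (16.5%, against 23.9%) were also below their flanks. Base composition moves with these shares: mean GC content was 40.8% at distal summits, 33.2% at their flanks and 34.4% in all windows, and its part in them was not tested. Across the members GC content and signal had a Spearman coefficient of 0.325, given as a description. Soft-masked sequence, which the RefSeq genome marks as repetitive or of low complexity, made up a mean of 22.6% of the bases around distal summits. It made up 41.3% of the sequence meeting the rule, 29.99% at promoter peaks, 21.4% at intron peaks and 18.9% at X distal peaks. None of the 4 motifs was found at 397 members.

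An X-box lay within 100 bp of 35 distal summits (3.34%), in 2.24% of flanks and in 1.68% of all windows. Promoter peaks had 3.82%, and the replicates gave 3.32% ± 0.181 for distal and 3.79% ± 0.523 for promoter peaks (SD, n = 2), so these classes were not separated. The highest was the peak 1418 bp upstream of txt-18, with signals of 302 and 283 in the replicates and 591 in the pooled data, shown above. Next in order were the peaks nearest to clp-10 (552), snt-4 (453), ldh-1 (422) and W07G1.7 (372). The ldh-1 gene encodes lactate dehydrogenase. A match within 3 bp of the summit, on the plus strand at chrV:11855161-11855174, stood near R13H4.5 (signal 313). Another match, at chrIV:6752845-6752858 on the minus strand, lay 94 bp from the summit of a peak with signal 289. That summit stood 4186 bp upstream of lin-45, the Raf kinase gene. Both matches are shown in their own orientation.
R13H4.5: ACTTCCTTGGCAAC
lin-45: GTTGCCTTGGTAAC
Members with an X-box had a median signal of 163, and those without one 150.

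**Figure D5:**
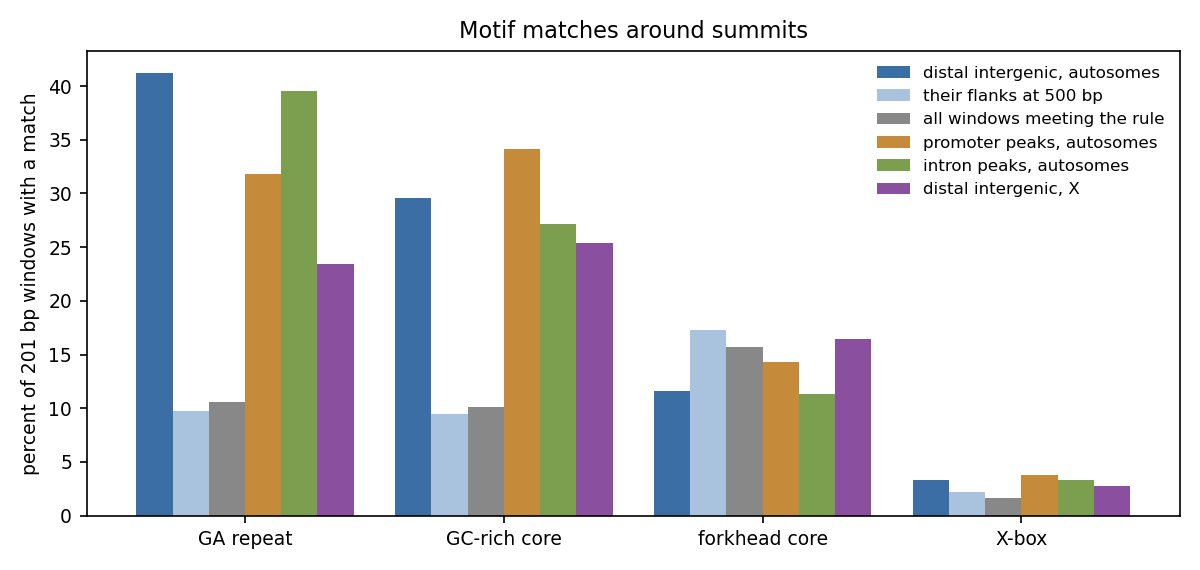
Percent of windows reaching 100 bp to either side with a match to each motif on either strand, at autosomal distal summits, their flanks, all autosomal windows meeting the rule, and promoter, intron and X distal peaks. The GA repeat is highest at distal summits (41.2%), and the forkhead core is lower at distal summits (11.6%) than in their flanks (17.3%).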

How the data were processed

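Peak lists in narrowPeak format on ce11 were used. Per the labels and the deposited file lists, 1 list came from each replicate with a control file, 1 from pooled replicates, and 1 held the peaks that passed the authors' threshold on the irreproducible discovery rate (IDR). The aligner, peak caller, cutoff and signal scaling are not given in the sources used here. Signal values are used as deposited, only within a list. The deposited −log10 q-values reached an upper limit at 80.3% of members, so peaks were ranked by signal.

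Summits were classified against Ensembl release 115 gene models (WBcel235) with Python 3.11.15. A 5′ end is that of the gene record. Bases meeting the rule were measured at every base, and distances at every base in 10. X-box and other matches were sought within 100 bp of the summit. Scripts were tested on made-up genes and planted motifs. Alternatives were other cutoffs, promoter windows, summit definitions and motif reaches, and each replicate alone.

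Members, gene lists and motifs were chosen with earlier results of these data known. Named were the 10 highest and 5 farthest members, the 3 intervals with most members (ties by summed signal), 10 genes with most members (ties by highest signal, and all those tied at the last count) and up to 4 genes per list by signal. Peaks, genes and bases are not independent replicates, and intervals cover counting only.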

Additional observations from a re-analysis of the deposited data

How the results depend on the processing

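Of 99 recomputed values, 43 stayed within a set limit of the main value and 56 moved beyond it. The limit was the replicate SD, except for the number of pan-neuronal genes, where it was a wider range. Each replicate alone gave 12 of the values, of which 7 and 8 stayed within the limit. The SD was computed from these same values, so they are not independent checks. Under that range 15 and 18 genes counted as unchanged against 13. No test was made, and the cause of each shift was not tested. Results are the share of reproducible peaks that are members (21.1%), median distance, signal ratio to other autosomal peaks, share with a summit within 2000 bp, non-coding share, share with a 5′ edge nearest, X-box, TAAACA, convergent and GAGAGA shares, pan-neuronal genes, and overlap with both replicates. With the stricter cutoff (the upper 50% of the reproducible list by signal) the first 8 were 18.5%, 2300 bp, 0.935, 26.1%, 8.28%, 62.3%, 3.70% and 11.1%, GAGAGA 50.3% and pan-neuronal genes 8. With a looser cutoff on the pooled list, at 2 times the number of peaks, the share was 21.5%, distance 2478 bp, ratio 0.955, neighbour share 63.1%, X-box 2.62%, TAAACA 12.4%, convergent 7.35%, GAGAGA 32.1% and pan-neuronal genes 18. Promoter windows of 2000 and 500 bp gave 13.6%, 3250 bp, 0.873, 43.2%, a 5′ edge nearest in 49.9%, X-box 2.96%, TAAACA 11.2%, convergent 7.69% and 5 pan-neuronal genes. Windows of 500 and 0 bp gave 26.5%, 1941 bp, 0.916, 42.7%, 63.6% and convergent 4.34%. Peak midpoints gave TAAACA 11.8%. Leaving out members in any gene gave a share of 19.8%, ratio 0.872, X-box 3.56% and TAAACA 12.1%. Neighbours within 1000 bp gave 20.7%, within 5000 bp 67.3%, and merged peaks 40.7%. Motifs within 200 bp gave X-box 4.68%, TAAACA 21.9% and GAGAGA 54.2%. Overlap with both replicates (82.0%) was 79.1% when most of the peak had to overlap, 39.6% with the stricter number of best peaks and 99.9% with the looser.

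Each replicate alone gave a share of 20.9 to 21.1%, distance 2337 to 2357 bp, ratio 0.892 to 0.894 and neighbours 44.2 to 45.1%. The non-coding share was 6.03 to 6.96%, 5′ edge 59.5 to 61.1%, X-box 3.19 to 3.44% and TAAACA 11.4 to 11.5%. Convergent was 5.26 to 6.18%, GAGAGA 40.4 to 41.8% and pan-neuronal genes 13 to 15. Overlap with the best peaks of that replicate only was 89.7 to 91.0%. This cannot be lower than the overlap with both (82.0%), so it is not a check of that result. The convergent, GAGAGA and pan-neuronal results and the merging of peaks were added after seeing the data. No paired analysis was possible because there is 1 group and no test. With 2 replicates, an SD rests on 1 difference, and the unknown read depth limits what weak peaks can show.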
